A study of Mus musculus with 157 samples.

Results

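The genes described here are the protein-coding genes of mouse chromosome 14, apart from the T cell receptor segments and the ribosomal protein genes, read along the chromosome in thymus and in thymic lymphomas. They were chosen by position, gene type and a mean of at least 1 CPM (counts scaled to the library total) over the 76 libraries of the later of 2 sequencing runs, which left 379 of the 50686 genes in the table. Of the 892 protein-coding chromosome 14 genes in the table, 511 were under that mean and 2 were ribosomal protein genes (Rpl15 and Rps24). No protein-coding gene there had a symbol starting Tra or Trd. The members just inside the limit were Synpo2l (mean 1.0 CPM), Gm3839 (1.09) and Nynrin (1.10), and the genes just outside it were Fzd3 (0.995), Ednrb (0.988) and Il17rd (0.974). No ratio between groups entered the choice of members, but the chromosome itself was put forward with ratios of these libraries known. Shares of members that differ between tumour and thymus are therefore given as a description.

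The series compared Cdc20(D/AAA) mice, its aneuploid genotype, with Cdc20(+/D) controls in 157 libraries of 23 groups. All groups but the p53(-/-) tumour carry 1 D allele of Cdc20. The name before Cdc20 (RERT2, LCK or CD4) is that of the driver of each mouse line, MYCChr6 is a further allele whose name points to MYC and chromosome 6, and p53(+/D) is the p53 genotype of 1 tumour group. The later run held non-tumoral thymus of RERT2-Cdc20(+/D) (n = 6, the reference here), RERT2-Cdc20(D/AAA) (9), RERT2-Cdc20(+/D); MYCChr6 (2) and RERT2-Cdc20(D/AAA); MYCChr6 (3) mice. It also held unsorted thymic lymphomas of RERT2-Cdc20(D/AAA) (22), RERT2-Cdc20(D/AAA);p53(+/D) (10), RERT2-Cdc20(D/AAA); MYCChr6 (3), LCK-Cdc20(D/AAA); MYCChr6 (14), LCK-Cdc20(+/D); MYCChr6 (4), CD4-Cdc20(D/AAA); MYCChr6 (2) and p53(-/-) (1) mice. From the earlier run of 81 libraries, double positive (DP) thymocytes sorted from RERT2-Cdc20(+/D) (7) and RERT2-Cdc20(D/AAA) (11) thymus, DP cells sorted from early RERT2-Cdc20(D/AAA) tumours (5) and unsorted early tumours (7) were used. The sources used here give no ages, no tissue of action for the drivers and no word on whether libraries came from separate animals. A p-value therefore reflects the spread among these libraries, which may be technical in part.

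Cdc20 activates the anaphase-promoting complex, the ubiquitin ligase that starts the separation of sister chromatids, and the spindle checkpoint holds it back until every chromosome is attached. Cells in which that brake fails can pass on extra or missing whole chromosomes, and a gained chromosome tends to raise the RNA of many of its genes together by a modest factor. Mouse chromosome 14 holds the T cell receptor alpha and delta segments, which thymocytes rearrange, and on either side of them genes for growth, DNA repair, the proteasome and chromatin. In bulk RNA a shift of a whole chromosome can only be read as a shift of many genes, and fewer cells of a type cannot be told apart from less RNA per cell.

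The members ran from position 7817957 to 122984035 of chromosome 14 (GRCm38), with 166 before the receptor segments (52427928 to 54224206), 213 after them and 0 between. A RefSeq promoter window (GRCm38.p6, 250 bases before to 50 after the annotated start) was found for 287 members. The letters CACGTG, which read the same on both strands and are the core of the E-box bound by MYC and related factors, stood in 29 of these windows (10.1%) and in 1957 of the 27025 windows of all genes (7.24%). The promoters of 4 members that the results turn on follow, 5′ to 3′ on the strand of the gene, with CACGTG in capitals. Apex1 (chr14:50924699-50924998, plus strand) and Supt16 (chr14:52197190-52197489, minus strand) hold it, 3 times and once, with the first copy starting 24 and 220 bases before the annotated start. Gnl3 (chr14:31019082-31019381, minus strand) and Dad1 (chr14:54253880-54254179, minus strand) hold none, and 80.3% and 57.3% of their bases are G or C. Gnl3 rose against thymus in each of the 5 tumour groups tested, and Supt16 and Dad1 lie on either side of the receptor segments.
Apex1: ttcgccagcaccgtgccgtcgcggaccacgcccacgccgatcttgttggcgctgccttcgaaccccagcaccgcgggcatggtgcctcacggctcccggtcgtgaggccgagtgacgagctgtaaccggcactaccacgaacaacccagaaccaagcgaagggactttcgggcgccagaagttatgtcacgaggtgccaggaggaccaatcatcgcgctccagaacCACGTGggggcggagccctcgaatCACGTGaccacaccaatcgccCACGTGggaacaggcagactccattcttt
Supt16: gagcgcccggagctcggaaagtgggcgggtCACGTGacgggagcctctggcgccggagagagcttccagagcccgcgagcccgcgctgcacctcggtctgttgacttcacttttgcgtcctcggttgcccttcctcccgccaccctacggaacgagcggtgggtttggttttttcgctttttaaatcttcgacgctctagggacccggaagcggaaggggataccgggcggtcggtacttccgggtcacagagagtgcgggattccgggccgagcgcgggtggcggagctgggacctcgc
Gnl3: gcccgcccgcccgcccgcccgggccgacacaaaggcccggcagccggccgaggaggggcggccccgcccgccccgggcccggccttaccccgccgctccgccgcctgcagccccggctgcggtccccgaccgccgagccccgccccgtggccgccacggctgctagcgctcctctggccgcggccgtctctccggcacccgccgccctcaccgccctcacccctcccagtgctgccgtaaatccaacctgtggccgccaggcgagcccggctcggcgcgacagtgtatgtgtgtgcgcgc
Dad1: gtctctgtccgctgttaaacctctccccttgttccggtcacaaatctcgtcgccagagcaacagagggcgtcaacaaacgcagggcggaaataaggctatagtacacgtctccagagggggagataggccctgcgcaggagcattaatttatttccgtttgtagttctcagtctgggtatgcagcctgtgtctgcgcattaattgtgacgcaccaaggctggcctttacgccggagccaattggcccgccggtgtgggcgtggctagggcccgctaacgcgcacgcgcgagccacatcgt

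Library totals in the later run were 1708619 to 8009572 counts, of which 30.1 to 56.0% belonged to CT010467.1, a gene model that overlaps ribosomal RNA. The 10 T cell markers had counts in thymus and in every tumour group of 3 or more libraries. Summed, they made up 8075 to 9608 CPM of RERT2 +/D thymus. The tumours were lower, with 3439 to 7126 CPM (RERT2 D/AAA), 3372 to 4815 CPM (p53(+/D)), 1666 to 2621 CPM (RERT2 MYCChr6) and 320.7 to 4194 CPM (LCK D/AAA MYCChr6). The 6 B cell markers summed to 25.2 to 149 CPM in that thymus, while RERT2 D/AAA tumours held 1.89 to 40.8 CPM and the LCK D/AAA MYCChr6 group 3.30 to 1604 CPM. The 8 myeloid and dendritic markers summed, in the same order, to 17.9 to 54.1, 22.6 to 195.3 and 101.8 to 751.4 CPM. All 6 and all 8 had counts in these 3 groups. The 7 thymic epithelial markers summed to 13.7 to 20.7 CPM in reference thymus and 3.14 to 15.1 CPM in RERT2 D/AAA tumours. Foxn1, part of that list, was at 0 in all RERT2 tumours, and its median in reference thymus was 0 too (highest 1.59 CPM). Trp53 was 7.55 to 26.9 CPM in the p53(+/D) tumours and 32.1 to 265.6 in the other RERT2 D/AAA tumours without the MYC allele, and 17.7 in the p53(-/-) tumour. The count of Cdc20 cannot show the AAA form. The part of cell make-up in the differences below was not tested.

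Chromosome 14 stood higher in most tumours without the MYC allele and in few tumours with it. The level of a library was taken as the median, over the 379 members, of its log2 CPM minus the mean of the reference thymus. It was 0.52 (median) in the 22 RERT2 D/AAA tumours, from -0.03 to 0.87, and 0.65 in the 10 p53(+/D) tumours, from 0.40 to 0.84. The 6 reference thymi lay between -0.07 and 0.12. A threshold of 0.2925, midway between no change and the 0.585 of a 1.5-fold step, was passed by 20 of 22 RERT2 D/AAA tumours and by 10 of 10 p53(+/D) tumours. The other 2 RERT2 D/AAA tumours were at -0.03 and 0.27, and the p53(-/-) tumour was at 0.32.

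In the LCK D/AAA MYCChr6 tumours the median level was 0.10, from -0.10 to 0.31, and 1 of 14 passed the threshold. The 4 LCK +/D MYCChr6 tumours lay between 0.11 and 0.23 and none passed. The 3 RERT2 MYCChr6 tumours were at 0.00, 0.07 and 0.44, and the 2 CD4 MYCChr6 tumours at -0.18 and 0.19. All 10 p53(+/D) tumours stood above every LCK tumour, whereas 2 of the 22 RERT2 D/AAA tumours lay within the range of the LCK tumours. The 9 D/AAA thymi had a median of 0.14, from -0.07 to 0.47, with 1 past the threshold. The median level over the other autosomes stayed between -0.12 and 0.13 in every later-run library.

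Chromosome 15 was past the threshold in all 22 RERT2 D/AAA tumours, in 20 of them together with chromosome 14, and in all 10 p53(+/D) tumours together with it. In the LCK D/AAA MYCChr6 tumours it was past the threshold in 10 of 14, and 9 of those 10 were under it on chromosome 14. Non-tumoral D/AAA thymi were past it on chromosome 15 in 4 of 9, 1 of them together with chromosome 14. Of the 3 RERT2 D/AAA MYCChr6 thymi, 1 was past it on both chromosomes (0.40 on 14 and 0.65 on 15). Chromosome 12 was past it in 10 of the 22 and 5 of the 10 tumours, and chromosome 4 in 4 of the 22 and 8 of the 10 (median 0.36 in the p53(+/D) tumours). The p53(-/-) tumour was past it on chromosomes 4 (0.52), 12 and 15.

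**Figure D1:**
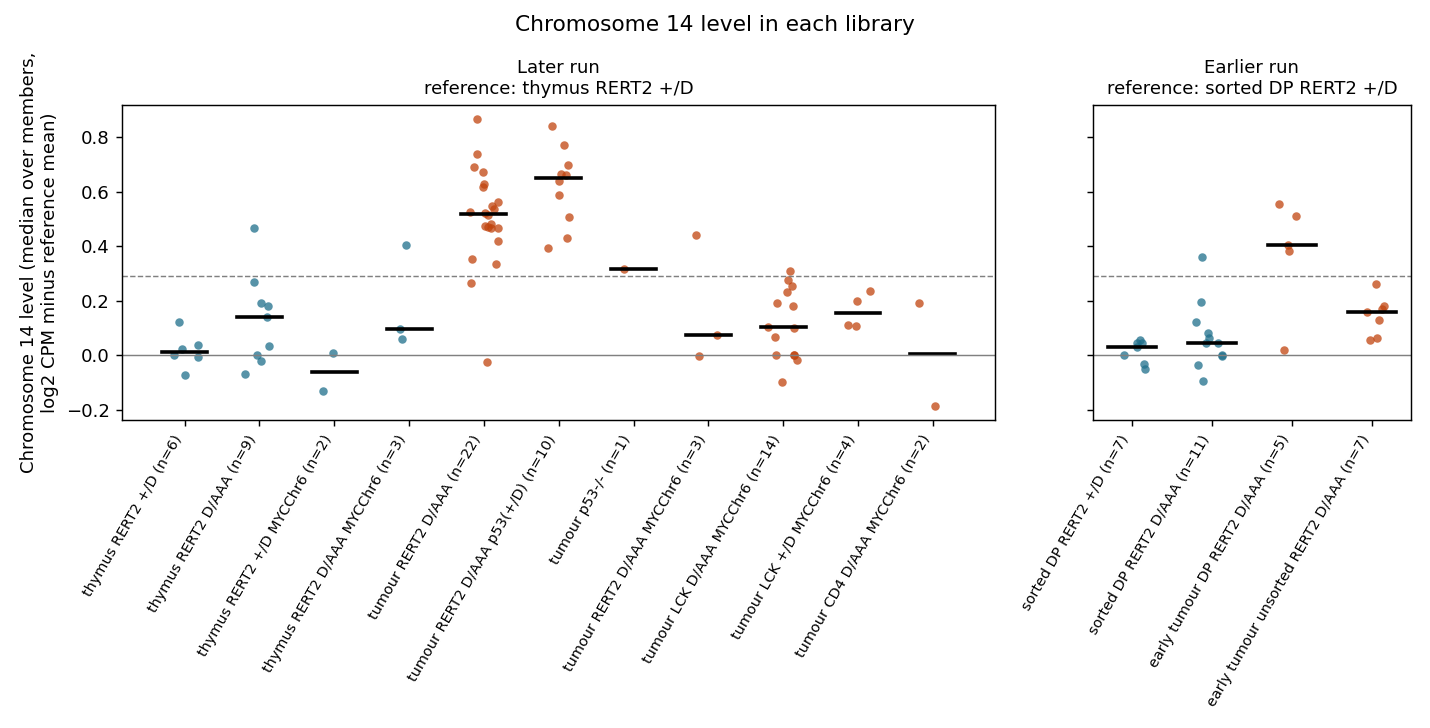
Chromosome 14 level of each library (vertical axis, log2 scale, median over 379 members against the reference group of the same run) by group; each point is 1 library, short lines are group medians and the dashed line is the threshold of 0.2925. The RERT2 D/AAA and p53(+/D) tumours centre on 0.52 and 0.65, and the LCK D/AAA MYCChr6 tumours on 0.10.

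The libraries of the earlier run had no part in the choice of members, but the chromosome was put forward with their levels known too. That run held the same chromosome in sorted cells, and its levels are given as a description. DP cells of 5 early tumours had levels of 0.02, 0.38, 0.56, 0.51 and 0.41 against DP cells of control thymus, which lay between -0.05 and 0.06, so that 4 of 5 passed the threshold and the other lay inside the control range. In the same 5 libraries, in the same order, chromosome 15 was at 0.00, 0.55, 0.84, 0.82 and 0.75. Sorted DP cells of non-tumoral D/AAA thymus had a median of 0.05, from -0.10 to 0.36, and 1 of 11 passed. None of the 7 unsorted early tumours, set against the same sorted DP cells, passed, at 0.06 to 0.26. T cell markers summed to 8388 to 19420 CPM in the D/AAA DP cells and 5676 to 18720 CPM in the tumour DP cells.

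The shift in the RERT2 D/AAA tumours was seen over most of the chromosome and was small from 10 to 20 Mb and from 100 to 120 Mb, stretches of 19 members each. The ratio of each gene was the difference of mean log2 CPM (prior count 2, which understates the change of low genes) from the reference thymus. It was positive for 277 of 379 members, with a median of 0.43 and quartiles of -0.06 and 1.04. Over the 6 stretches of 10 Mb with at least 20 members, the median ratio was 0.34 from 20 to 30 Mb, 0.76 from 30 to 40, 0.42 from 40 to 50, 0.55 from 50 to 60, 0.56 from 60 to 70 and 0.39 from 70 to 80. The stretches with fewer members included 0 to 10 Mb (8 members), with a median of 0.39, and 10 to 20 Mb (19 members), with 0.04. In stretches of 20 Mb, 0 to 20 Mb (27 members, 16 positive) had a median of 0.06 and 100 to 120 Mb (19 members, 12 positive) 0.11. The median level per library was 0.52 before the receptor segments and 0.51 after them, and 19 tumours were past the threshold on both sides and 2 on 1 side. In the p53(+/D) tumours the 6 stretches ranged from 0.41 to 0.95, 284 of 379 members were positive, and 10 of 10 tumours were past the threshold on both sides. Their medians were 0.70 from 0 to 20 Mb and 0.37 from 100 to 120 Mb. In the LCK D/AAA MYCChr6 tumours the stretches ranged from -0.13 to 0.55 and 212 of 379 members were positive. The median ratio in the RERT2 D/AAA tumours was 0.34 for the 139 members under 10 CPM, 0.54 for the 218 from 10 to 100 CPM and 0.83 for the 22 above.

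**Figure D2:**
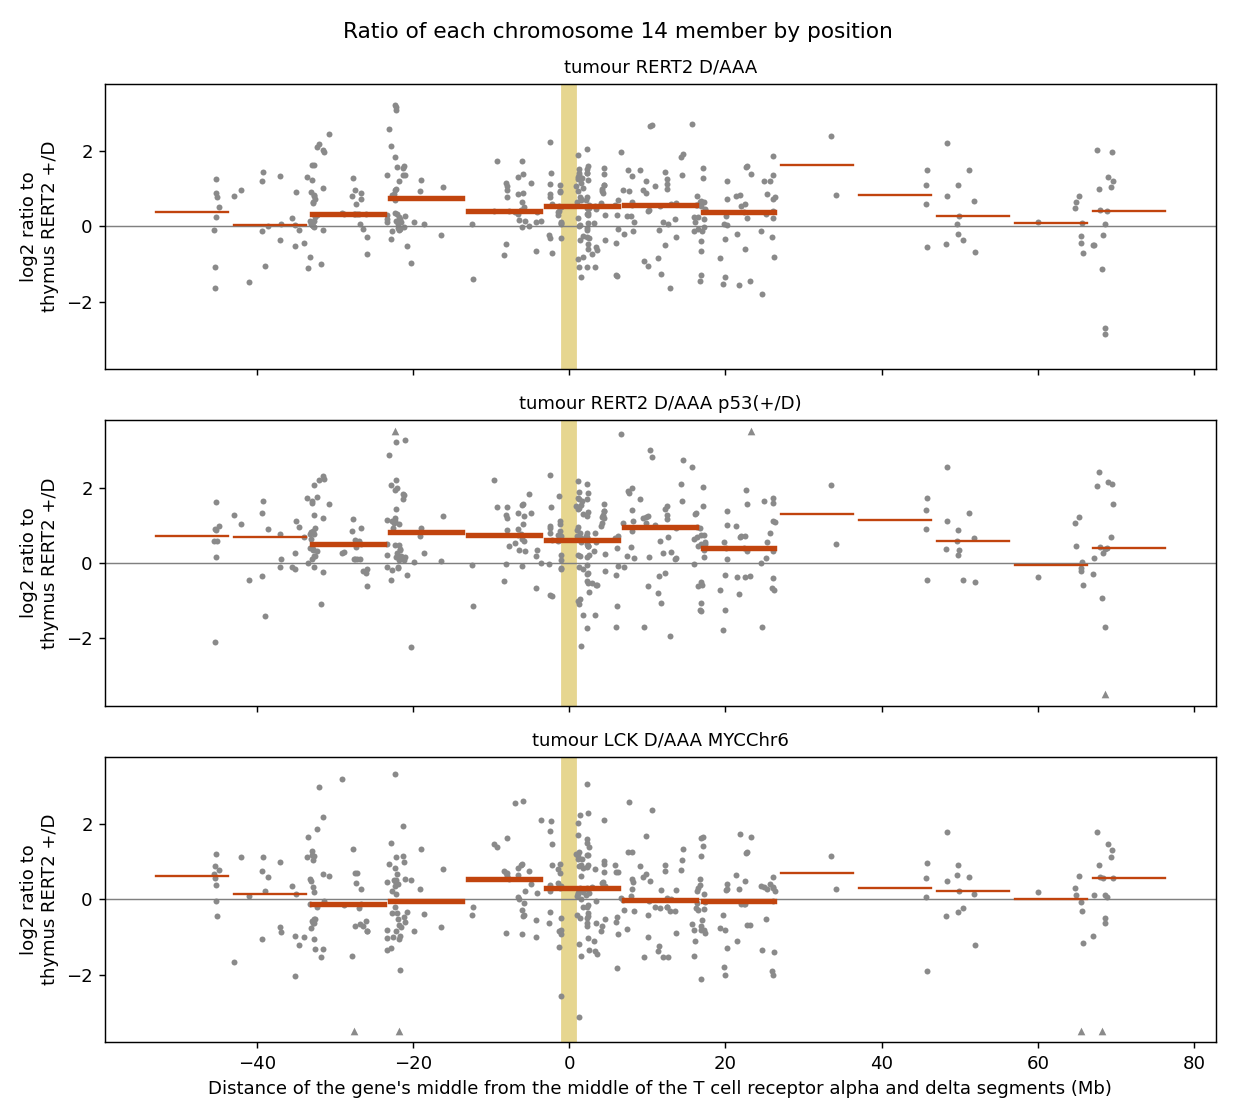
Log2 ratio of each member to the reference thymus (vertical axis) by distance in Mb from the middle of the receptor segments (horizontal axis), with one panel for RERT2 D/AAA, p53(+/D) and LCK D/AAA MYCChr6 tumours; points are genes, triangles are genes beyond the axis, lines are medians of 10 Mb stretches (thin where under 20 members) and the shaded band is the receptor segments. In the RERT2 D/AAA and p53(+/D) panels the medians of stretches with at least 20 members lie above 0 on both sides of the band, from 0.34 to 0.76 and from 0.41 to 0.95.

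Gene by gene, the RERT2 D/AAA tumours were compared with RERT2 +/D thymus with edgeR over 12381 genes (Benjamini-Hochberg adjustment over all of them, threshold 0.05). Of the 363 members tested, 138 were higher (38.0%, where 22.4% of all genes tested were higher) and 18 were lower (4.96%, against 19.1%). The median log2 fold change of the members was 0.53, with quartiles of -0.02 and 1.15, and that of all genes 0.05. The 2 groups did not overlap, with the tumours higher, for 39 members (10.7%, against 4.07% of all genes), and no member lay lower without overlap (3.69% of all genes did).

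**Figure D3:**
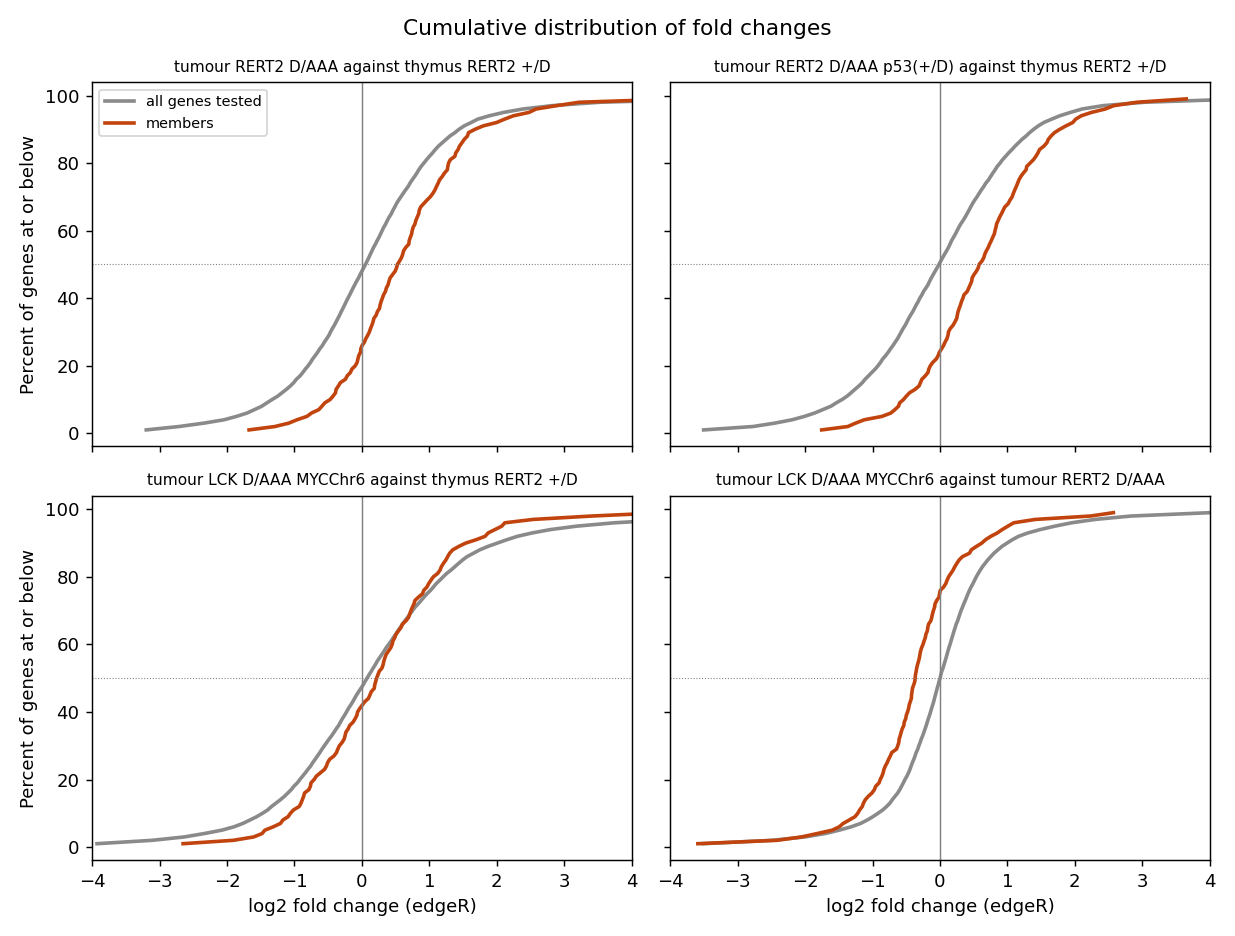
Cumulative share of genes (vertical axis, percent) by log2 fold change (horizontal axis) for the members and for all genes tested in each of 4 comparisons. Against thymus the members' curve lies to the right of all genes in RERT2 D/AAA tumours (medians 0.53 and 0.05), and between LCK D/AAA MYCChr6 and RERT2 D/AAA tumours it lies to the left (medians -0.37 and 0.00).

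Among the members named by the rule for named genes, 4 with roles in the nucleolus, DNA repair and splicing are given first. Gnl3, the nucleolar GTPase nucleostemin, was 2.59, 4.96 and 7.56 CPM (lowest, median, highest) in thymus and 19.8, 51.3 and 81.8 in the 22 tumours. The groups did not overlap, and the log2 fold change was 3.27 ± 0.31 (SE; edgeR adjusted p = 1.18e-09). Apex1, the endonuclease of base excision repair, was 12.1, 17.4 and 23.2 CPM in thymus and 54.8, 79.2 and 141.6 in tumours, also without overlap (2.24 ± 0.19, adjusted p = 1.93e-10). Pinx1, a nucleolar inhibitor of telomerase, was 0.245, 1.23 and 2.02 CPM against 4.63, 9.38 and 14.3 (2.89 ± 0.36, adjusted p = 1.5e-07). Prmt5, an arginine methyltransferase of histones and splicing factors, was 19.7, 28.4 and 38.7 CPM against 55.6, 103.1 and 137.4 (1.86 ± 0.17, adjusted p = 7.77e-10). Every tumour was above every thymus library for these 4 genes. Apex1 shares 1072 bases with Pip4p1 on the other strand and Gnl3 shares 15 with Pbrm1, and whether the authors counted by strand is not given in the sources used here.

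Nt5dc2, a protein with a 5′-nucleotidase domain, was 0.229, 6.59 and 7.90 CPM in thymus and 14.9, 41.8 and 91.9 in tumours (2.87 ± 0.39, adjusted p = 6.93e-07), again without overlap. Adk, which phosphorylates adenosine, rose by 2.26 ± 0.33 on the log2 scale (adjusted p = 2.39e-06) from a median of 4.75 to 21.8 CPM. Diaph3, a formin that builds actin filaments, rose by 2.38 ± 0.36 (adjusted p = 3.45e-06) from a median of 2.97 to 13.5 CPM. Cacna1d, a calcium channel subunit that shares 11921 bases with Dcp1a, and Vcl, the adhesion protein vinculin, rose by 2.53 ± 0.67 and 2.49 ± 0.67 (adjusted p = 0.00304 and 0.0035). Stab1, a scavenger receptor of macrophages and vessel lining cells, had the highest log2 fold change of the named members, 5.48 ± 1.08 (adjusted p = 0.000138). It was 0 to 0.296 CPM in thymus and 0, 6.28 and 27.8 in tumours, and the myeloid and dendritic markers given above were also higher in part of these tumours. Stc1, the hormone stanniocalcin, was 0, 0 and 5.63 CPM against 0, 4.22 and 21.9 (2.84 ± 1.15, adjusted p = 0.0465), and its call was lost in 8 of the other fits.

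The role lists, drawn up from gene function, held 155 chromosome 14 genes of which 122 were members. Of all genes tested in RERT2 D/AAA tumours against thymus, 22.4% were higher and 19.1% lower. Among 22 tested genes of cell division and DNA replication, 15 were higher and 0 lower (median log2 fold change 1.13), among them Cdca2, a mitotic chromatin regulator (1.72), Wdhd1, a replication fork protein (1.68), Pbk, a mitotic kinase (1.29), and Esco2, which acetylates cohesin (1.15). Of 17 genes of mitochondria and metabolism, 10 were higher and 0 lower (median 1.03). Tkt, the pentose phosphate enzyme transketolase, was 97.4 CPM in thymus and 442.5 in tumours on average (log2 fold change 2.14, adjusted p = 9.34e-10), and the import pore subunit Timm23 rose by 1.58. Of 15 genes of the proteasome and ubiquitin system, 9 were higher and 1 lower (median 0.92). Psmb5, a catalytic subunit of the proteasome, was 58.0, 64.6 and 84.9 CPM in thymus and 104.3, 205 and 296.7 in tumours, without overlap (1.52 ± 0.16, adjusted p = 1.43e-08). Uchl3, a deubiquitinase, rose by 2.23 and the regulator subunits Psme2 and Psme1 by 1.42 and 0.75. Rabggta, a prenyltransferase kept on that list, was the lower one at -0.59.

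Of 16 genes of RNA processing and translation, 11 were higher and 0 lower (median 0.88), among them the ribosome assembly factors Nop9 (1.54) and Ngdn (1.26) and the exosome nuclease Dis3 (1.39). Chromatin and transcription genes were more mixed, with 9 of 23 higher and 2 lower (median 0.51). Supt16, a subunit of the histone chaperone FACT, was 42.2, 54.3 and 56.0 CPM in thymus and 68.2, 112.2 and 158.1 in tumours, without overlap (1.08 ± 0.16, adjusted p = 3.08e-06). Zmiz1, a co-activator of Notch1, was 120.3, 132.7 and 172.6 CPM against 122.3, 234.3 and 415 (0.82 ± 0.19, adjusted p = 0.000936), with overlap. Rb1, Bap1 and Pbrm1, each known as a tumour suppressor gene, did not pass: their log2 fold changes were -0.36 ± 0.27, 0.31 and 0.36 (adjusted p = 0.3, 0.126 and 0.144), and Rb1 was 10.8, 18.5 and 31.6 CPM in thymus and 5.55, 13.1 and 30.7 in tumours. Top2b, which like Rb1 is on the cell division list, was at 0.01 (adjusted p = 0.961).

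Lymphocyte signalling, adhesion and migration was the list with as many members lower as higher, 4 and 4 of 19 tested (median 0.18), near the 22.4% and 19.1% of all genes tested. Gpr183, an oxysterol receptor that guides lymphocytes, was 5.17, 7.69 and 22 CPM in thymus and 0, 1.09 and 14.4 in tumours (-2.67 ± 0.67, adjusted p = 0.00186). Gpr18, a receptor of the same family that lies beside it within Ubac2, was 9.18, 14 and 17.4 CPM against 0, 1.79 and 12.3 (-2.19 ± 0.64, adjusted p = 0.00621). The interferon genes Epsti1 and Irf9 fell by 1.57 and 1.03, and the histone acetyltransferase Kat6b fell by 0.98 from a median of 130.7 to 66.7 CPM (adjusted p = 8.39e-05). Lpar6, a lysophosphatidic acid receptor inside Rb1, fell by 1.35, the glycosyltransferase Extl3 by 1.32 and the cadherin Cdh24 by 1.01. Ptk2b, a kinase of the focal adhesion family, and Parp4 fell by 1.20 and 0.95 with adjusted p of 0.0342 and 0.032, and these calls were lost in 7 and 4 of the other fits. Of 8 cell death genes 3 were higher and 1 lower, and of 14 granzyme and mast cell protease genes 1 was a member, Gzmb, and none was tested.

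Of the 4 members nearest to the receptor segments, 1 rose. On the near side, Mettl3, the RNA adenosine methyltransferase, and Sall2, a zinc finger factor, had log2 fold changes of 0.56 ± 0.25 and -0.02 (adjusted p = 0.0702 and 0.964). On the far side, Dad1, a subunit of the oligosaccharyltransferase whose promoter is printed above, was 62.4, 90.7 and 98.9 CPM in thymus and 115, 177.9 and 276.2 in tumours, without overlap (1.05 ± 0.16, adjusted p = 2.57e-06). Abhd4, a lipid hydrolase next to it, was at 0.73 (adjusted p = 0.225). Members with CACGTG in the promoter window had a median log2 fold change of 0.79, with 14 of 28 higher and 0 lower. Those with a window without it had 0.47, with 89 of 247 higher and 13 lower. The same split was not made over all genes, and a link between these letters and the changes was not tested.

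The p53(+/D) tumours were set against the same 6 thymi, so their values share those controls. Of 347 members tested, 141 were higher (23% of all genes tested were) and 24 lower (22.6% of all genes), with a median of 0.58. The groups did not overlap for 73 members that were higher (21%, against 9.33% of all genes) and for 4 that were lower, Cdh24, Gpr18, Kat6b and Ptk2b (1.15%, against 8.32%). Serp2, a protein of the endoplasmic reticulum, was 0, 0.345 and 0.862 CPM in thymus and 5.46, 8.43 and 19.8 in these tumours (4.47 ± 0.53, adjusted p = 8e-07). Atp8a2, a lipid flippase, rose by 4.64, Gnl3 by 3.52 and Ogdhl, a relative of oxoglutarate dehydrogenase, by 2.98. Gpr18, the nuclease gene Dnase1l3, Wdfy4 and Gpr183 fell by 3.05, 2.84, 1.98 and 1.80.

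Between the tumours of both kinds without the MYC allele, few genes differed, on chromosome 14 as over all genes tested. In the direct comparison of p53(+/D) with the other RERT2 D/AAA tumours, 3 of 354 members were higher (0.742% of all genes tested) and 0 lower (0.55%), with a median of 0.07. The 3 were Rtraf, part of the tRNA ligase complex (lowest, median and highest 105, 133.7 and 158.3 against 65.7, 103 and 128.7 CPM, log2 fold change 0.40 ± 0.09, adjusted p = 0.0132), the proteasome ATPase Psmc6 (mean 64.9 against 48.3 CPM, 0.42 ± 0.10, adjusted p = 0.0266) and Dad1 (mean 247.3 against 184.6 CPM, 0.42 ± 0.11, adjusted p = 0.0489). All 10 p53(+/D) tumours were above the median of the other group for each, and the groups overlapped. With all later-run libraries in 1 fit none of the 3 passed.

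The MYCChr6 tumours shared the reference thymi too. In LCK D/AAA MYCChr6 tumours 73 of 348 members were higher than in thymus (25.1% of all genes tested were) and 56 lower (19.8% of all genes), with a median of 0.22. Without overlap between the groups, 22 were higher (6.32%, against 6.42% of all genes) and 9 lower (2.59%, against 6.3%). The LCK +/D MYCChr6 tumours had 58 higher and 38 lower of 342 (16.4% and 15.9% of all genes), with a median of 0.11. The RERT2 MYCChr6 tumours had 56 higher and 35 lower of 348 (15.5% and 15% of all genes), with a median of 0.17. Gnl3 rose in each, by 3.39, 3.01 and 3.26 on the log2 scale, and Adk by 3.31, 3.73 and 3.70. Pck2, the mitochondrial phosphoenolpyruvate carboxykinase, rose by 3.94 in the LCK D/AAA and by 3.70 in the RERT2 MYCChr6 tumours. Zcchc24, a zinc finger gene, fell by 3.75, 4.23 and 3.82, and Dzip1, a gene of cilium formation, by 2.73, 4.84 and 5.31. The peptide transporter gene Slc15a1 and the collagen tail gene of acetylcholinesterase, Colq, fell by 4.58 and 4.28 in the LCK D/AAA tumours.

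Tumours with the MYC allele were then compared directly with the 22 RERT2 D/AAA tumours, in tests added after the levels per library had been seen. Of 342 members tested in LCK D/AAA MYCChr6 tumours, 141 were lower (41.2%, where 16.7% of all genes tested were lower) and 23 higher (6.73%, against 18.6%). The median was -0.37 for the members and 0.00 for all genes. The driver, the MYC allele, the marker levels and the chromosome 6 level differ together between these groups and cannot be told apart. The median chromosome 6 level was 0.47 in the LCK D/AAA MYCChr6 and -0.03 in the RERT2 D/AAA tumours. Without the LCK tumour that had the fewest T cell and the most B cell marker counts, 146 members were lower and 22 higher of 341 (17.1% and 18.5% of all genes), with a median of -0.39.

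Nt5dc2 and Sall2 were lower in every one of the 14 LCK D/AAA MYCChr6 tumours than in any of the 22 RERT2 D/AAA tumours. Nt5dc2 was 0.663, 8.0 and 13.2 CPM in the 14 LCK tumours and 14.9, 41.8 and 91.9 in the RERT2 D/AAA tumours, without overlap (-2.49 ± 0.26, adjusted p = 3.87e-09). Sall2 was 1.31, 6.04 and 12.8 CPM against 21.3, 35.2 and 69.8, without overlap (-2.40 ± 0.28, adjusted p = 3.66e-08). These, with the iron importer of mitochondria Slc25a37, were the 3 members that lay lower without overlap (0.877%, against 0.162% of all genes), and 0 lay higher (0.207% of all genes). Zmiz1 was 9.66, 64.1 and 129.2 CPM against 122.3, 234.3 and 415 (-2.0 ± 0.27, adjusted p = 3.39e-07), with overlap in a narrow range. Supt16 was 23.2, 66.2 and 115.6 CPM against 68.2, 112.2 and 158.1 (-0.74 ± 0.14, adjusted p = 7.53e-05). Colq was 0, 1.38 and 24.1 CPM against 22.5, 83.0 and 187.9 (-4.31 ± 0.54, adjusted p = 1.66e-07). Stc1 had 0 counts in all 14 LCK tumours and counts in 20 of 22 RERT2 D/AAA tumours (mean 6.85 CPM), at least 165-fold lower when the floor is set at 3 counts over the group.

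Other genes that were high against thymus were as high with the MYC allele within the spread of the libraries. Gnl3 was 19.2, 57.2 and 91.4 CPM in the LCK tumours (log2 difference from RERT2 D/AAA tumours 0.14, adjusted p = 0.578), Apex1 8.28, 73.2 and 123.2 CPM (-0.26, adjusted p = 0.28), and Prmt5 27.5, 103.2 and 170.3 CPM (-0.04, adjusted p = 0.865). Psmb5 was at -0.25 (adjusted p = 0.0864). These p-values miss the threshold and do not show equal levels. Among the higher members, Ppp3cc, a catalytic subunit of calcineurin, was 0.604, 5.68 and 80.5 CPM against 0, 0.961 and 5.33 (3.15 ± 0.60, adjusted p = 7.63e-05). Gpr183, Dnase1l3, Gpr18 and Phf11b rose by 2.75, 2.58, 2.41 and 2.36, Adk by 1.08 and Lcp1, the actin bundling protein of white blood cells, by 0.91. Gpr183 and Dnase1l3 are also expressed by B or myeloid cells, whose markers were higher in part of the LCK tumours, and that part was not tested.

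**Figure D4:**
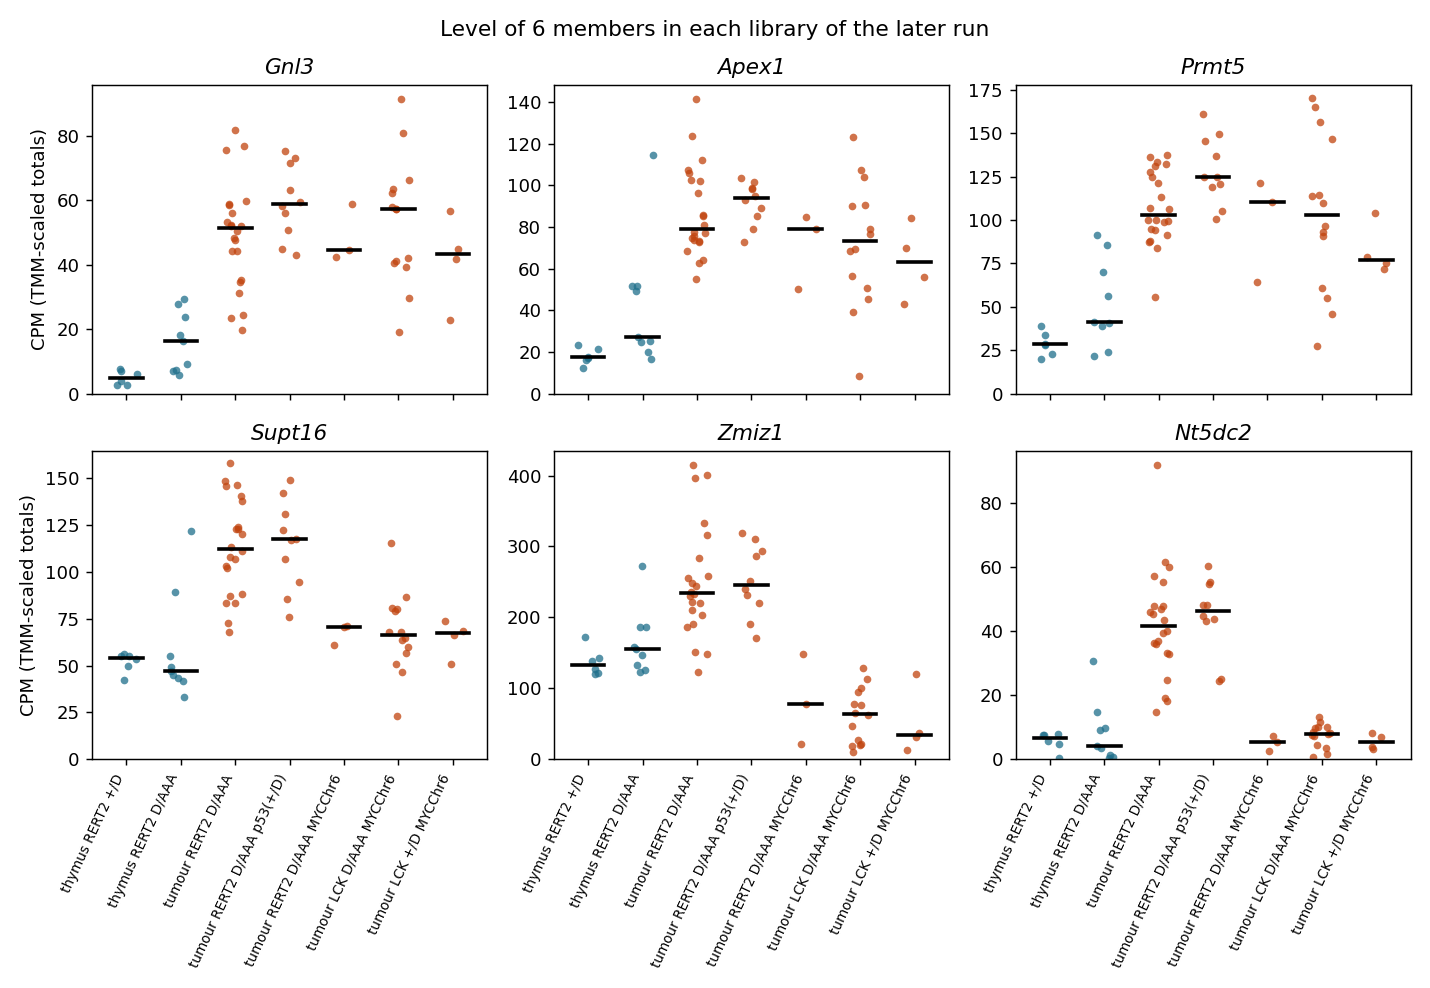
CPM (vertical axis, linear from 0) of 6 members (Gnl3, Apex1, Prmt5, Supt16, Zmiz1 and Nt5dc2, one panel each) in every library of 7 later-run groups; points are libraries and short lines are medians. The medians of Gnl3, Apex1 and Prmt5 lie above those of both thymus groups in every tumour group, whereas Nt5dc2 in the 14 LCK D/AAA MYCChr6 tumours (up to 13.2 CPM) lies below all 22 RERT2 D/AAA tumours (14.9 CPM and up).

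Between LCK D/AAA MYCChr6 and RERT2 D/AAA tumours, 16.7% of all genes tested were lower and 18.6% higher, against 41.2% and 6.73% of the members. By role, 13 of 22 cell division genes were lower in the LCK D/AAA MYCChr6 than in the RERT2 D/AAA tumours and 0 higher (median -0.60). Among them were Pbk (-1.40), Esco2 (-1.19), the spindle gene Dlgap5 (-1.15) and the centriole gene Cenpj (-1.09). Of 22 chromatin and transcription genes, 14 were lower and 1 higher (median -0.50). These included the Polycomb-related Sfmbt1 (-1.60), the deubiquitinase Bap1 (-0.63), the remodeller subunit Pbrm1 (-0.59) and the remodeller Chd8 (-0.47). Top2b, which is on the cell division list, was at -0.85. Of 14 proteasome and ubiquitin genes 3 were lower (Ube2e1, Rnf31 and Uchl3, -0.76 to -0.36) and 0 higher, and of 16 RNA processing genes 4 were lower and 0 higher. Lymphocyte signalling genes went the other way, with 7 of 18 higher and 2 lower (median 0.65). Members with CACGTG in the promoter window had a median of -0.42, with 12 of 27 lower and 0 higher, and the others -0.36, with 92 of 233 lower and 16 higher. Here too the split was not made over all genes, and a link was not tested.

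**Figure D5:**
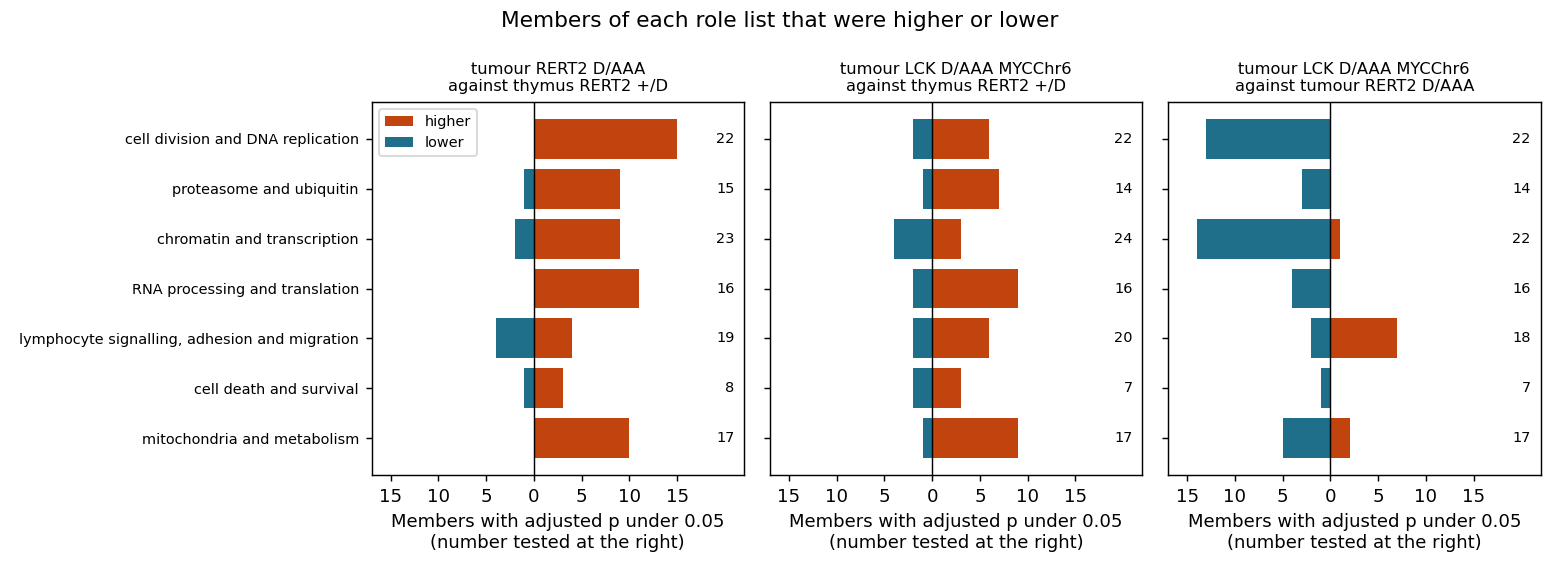
Number of members of 7 role lists that were higher (bars to the right) or lower (bars to the left) at an adjusted p under 0.05 in 3 comparisons, with the number tested at the right of each panel. Of 22 cell division genes, 15 were higher and 0 lower in RERT2 D/AAA tumours against thymus, and 0 higher and 13 lower in LCK D/AAA MYCChr6 against RERT2 D/AAA tumours.

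In the 3 RERT2 MYCChr6 tumours, which share the driver with the RERT2 D/AAA tumours, 41 of 370 members were lower (11.1%, where 3.57% of all genes were lower) and 6 higher (1.62%, against 5.65%). The median was -0.37, and -0.03 for all genes. Leaving out 1 of the 3 gave 18 to 27 lower members. Nt5dc2 was 2.54, 5.47 and 7.39 CPM in these 3 tumours (-3.02), Sall2 3.42, 4.58 and 11.4 CPM (-2.51) and Dzip1 0.528, 0.725 and 1.82 CPM (-5.05). Nt5dc2 and Sall2 lay below all 22 RERT2 D/AAA tumours, and so did Dzip1, whose lowest value there was 9.46 CPM. The share of all genes tested that did so was not taken, and with 3 libraries a lack of overlap is easily reached. Zmiz1 (21.8, 78.4 and 148 CPM, -1.56, adjusted p = 0.00852) and Supt16 (60.9, 70.7 and 71.4 CPM, -0.73, adjusted p = 0.0328) were lower too, with overlap. Ogdhl and Stc1 had 0 counts in all 3, at least 41.8-fold and 35.6-fold lower with that floor. The amino acid transporter gene Slc7a8 was 3.62, 190 and 201 CPM, against 0, 1.36 and 14.4 in the 22 tumours (5.98).

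No member passed in the comparisons by Cdc20 genotype within a tissue. In simulated data with every member raised 1.5-fold, the fits called 1.85% of members in D/AAA thymus, 0.563% in LCK tumours by genotype and 11.7% in sorted DP cells. With so few found, 0 calls do not show unchanged levels. In non-tumoral D/AAA against +/D thymus, 0 of 336 members were higher or lower (0% of all genes each way), with a median of 0.14. At an unadjusted edgeR p under 0.05 there were 32 members, 31 higher and 1 lower (9.52%, against 8.21% of all genes in either direction). At unadjusted p the share of all genes was not taken by direction, here and in the comparisons below, so the split has no background. DESeq2 called 3 higher (0.306% of all genes). Gnl3 was 5.81, 16.2 and 29.2 CPM in D/AAA thymus (1.70, adjusted p = 0.34) and Pinx1 2.16, 5.11 and 9.98 (2.24, adjusted p = 0.34). In LCK MYCChr6 tumours by genotype, 0 of 363 members passed (0% of all genes), with a median of 0.08. There were 22 at an unadjusted p under 0.05, 13 higher and 9 lower (6.06%, against 5.11% of all genes in either direction), and 1 called higher by DESeq2 (0.185%). In sorted DP cells of D/AAA against +/D thymus, 0 of 332 passed (0% higher and 0.00803% lower of all genes), with a median of 0.14. There 33 were at an unadjusted p under 0.05, 31 higher and 2 lower (9.94%, against 10.6% of all genes in either direction). DESeq2 called 3 higher there (0.588%). Gnl3 and Apex1 were at 1.89 and 1.37 there (adjusted p = 0.209 for both).

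DP cells of early tumours against DP cells of non-tumoral D/AAA thymus gave a median of 0.35 over 338 members and -0.07 over all genes. In simulated data with every member raised 1.5-fold, the fit of these groups called 2.11% of the members. In the real libraries none passed in either direction (0% of all genes). At an unadjusted p under 0.05 there were 105 members, 95 higher and 10 lower (31.1%, against 22.2% of all genes in either direction). The share by direction was not taken over all genes. DESeq2 called 50 higher (2.96% of all genes) and 1 lower (3.5%). Early tumour DP replicate 1, whose chromosome 14 and 15 levels were near 0, weighed on this: without it 65 members were higher and 4 lower (5.43% and 6.9% of all genes). Without the sorted D/AAA DP replicates 1 and 5, the 2 of 11 past the threshold on chromosome 15 (0.66 and 0.55), 67 were higher and 2 lower (9.4% and 5.05%). Those 2 were at -0.10 and 0.20 on chromosome 14. Without replicate 9, the one past the threshold on chromosome 14 (0.36), 0 were higher or lower. Nt5dc2 was 84.8, 216.3, 511.6, 325.1 and 399.7 CPM in tumour replicates 1 to 5, and 48.4, 88.7 and 199.1 CPM in the 11 non-tumoral libraries (1.60 ± 0.32, edgeR adjusted p = 0.0718). Replicates 2 to 5 were above all 11. Gnl3 was 31.3, 194.1, 408.1, 213.3 and 257.9 CPM against 17.3, 28.6 and 220.7 (2.09 ± 0.56, adjusted p = 0.0879), and Apex1 87.8, 199.5, 430.2, 359.7 and 178 CPM (1.72, adjusted p = 0.0799). Supt16 and Prmt5 were at 1.07 and 1.11 (adjusted p = 0.0879 and 0.0846), and Zmiz1 and Rb1 at 0.52 and -0.42 (adjusted p = 0.402 and 0.436).

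The stage of the cells moves with several of these genes. In sorted cells of +/D thymus, with 6 to 8 libraries a stage, the median of Gnl3 was 50.2 CPM at the double negative stage DN1, 127 at DN2, 149.8 at DN3 and 160.7 at DN4, and 12.6 in DP cells. Apex1 was also lowest in DP cells, with 69.9, 283.7, 252.4, 287.7 and 28.5 CPM at the same 5 stages. Nt5dc2 was lower in DP cells than at DN2 to DN4 and lowest at DN1, with 6.05, 270.3, 264.1, 430.1 and 91.7 CPM. Rb1 was highest in DP cells and lowest at DN3, with 63.1, 20.2, 16.2, 28.5 and 87.9 CPM. Whole thymus is mostly DP cells, and the part of stage in the differences between tumours and whole thymus was not tested.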

How the data were processed

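RNA of 157 mouse libraries was sequenced in 2 runs of 81 and 76 libraries. Per the labels' protocols, RNA was prepared with the RNeasy Plus Mini kit and sequenced on the HiSeq2000. FastQC, STAR 2.5.3a, RSEM 1.3.0 and the build GRCm38 are named in the submitters' processing notes. The authors deposited 1 table per run of RSEM expected counts per gene, which held whole numbers and were rounded as such. For strand and annotation release: not given in the sources used here. Symbols, types and positions were taken from GENCODE M21, which may differ from the authors' annotation, and promoter windows from RefSeq. Of the 58 named members, 22 overlap another gene.

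Groups followed the labels. Pairs of groups of 1 run were compared with edgeR 4.0.16 in R 4.3.3 (filterByExpr, TMM factors, robust quasi-likelihood fits, 2-sided), with Benjamini-Hochberg adjustment over all genes tested and a threshold of 0.05. The ± marks SE on log2 fold changes and SD on CPM. CPM used TMM-scaled totals, and log2 CPM a prior count of 2. Groups of 1 or 2 libraries were not tested. Library totals of 1708619 to 8009572 in the later run limit the precision of members near 1 CPM. A group at 0 counts was set at a floor of 3 counts over the group. The fits were tested on simulated data.

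The members and lists were chosen with earlier results of these data known. Named members were up to 10 per direction in RERT2 D/AAA tumours against thymus, and up to 4 elsewhere, with the largest fold change among those with adjusted p under 0.05, a mean of at least 5 CPM in 1 group and at least 80% of libraries of the first group on 1 side of the median of the second. A fixed list of 19 genes and the 2 nearest members on either side of the receptor segments were added. Genes given as examples of the role lists were picked after their values were seen. The alternatives tried were no filter, DESeq2 1.42.0, factors by relative log expression, 1 fit of all libraries of a run, members of at least 10 CPM, plain totals, a prior count of 0.5, a mean over members, bins of 20 Mb, a threshold at the reference mean plus 3 SD and single libraries left out. The direct comparisons of MYCChr6 with RERT2 D/AAA tumours, and fits without libraries that stood apart, were chosen after seeing the data. Tables were made in Python 3.11.15 (pandas 2.3.3, numpy 2.4.6).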

Additional observations from a re-analysis of the deposited data

Results flagged for a closer look

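Of 27 sets of values, each of 1 gene or level in 1 group of 4 to 10 libraries, examined for 1 library far from the others (chance flags about 1 in 20), 3 held one, all in RERT2 +/D thymus. Replicate 2 was low for Nt5dc2, at -0.70 log2 CPM. Replicate 1 was high for Stc1, at 2.59 log2 CPM, and for Extl3, at 4.23 log2 CPM. The other 5 thymus libraries had 0 counts of Stc1.

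In the direct comparisons between tumour groups, 3 of 354 members passed the test between p53(+/D) and other RERT2 D/AAA tumours, where 0.742% of all genes tested were higher and 0.55% lower, so this count is near its background. Between LCK D/AAA MYCChr6 and RERT2 D/AAA tumours 164 of 342 passed (18.6% of all genes higher and 16.7% lower), and between RERT2 MYCChr6 and RERT2 D/AAA tumours 47 of 370 (5.65% and 3.57%).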

How the results depend on the processing

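Of 537 alternative values of the counts, medians and levels, 502 stayed within the limits set for them and 35 moved. None reversed, which for a count could not occur, since a count has no direction. Of 912 alternative fits of 90 single-gene results, 867 stayed on the same side of the threshold, 44 in 17 results no longer passed (Stc1 8 times, Ptk2b 7 and Dlgap5 5 times against thymus) and 1, Bap1, newly passed. Where counts moved, the cause was not tested.

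Counts of members that moved follow, each with the number tested and, in parentheses, the share of all genes tested that was called the same way. With DESeq2, members higher were 3 of 365 in D/AAA thymus (0.306%), 7 of 247 in p53(+/D) against other RERT2 D/AAA tumours (2.45%), 1 of 360 in LCK tumours by genotype (0.185%), 3 of 362 in sorted DP cells (0.588%) and 50 of 349 in early tumour DP cells (2.96%), where 1 was lower (3.5%). In RERT2 MYCChr6 against RERT2 D/AAA tumours DESeq2 called 63 of 368 lower (6.8%). With 1 fit of a run, which tested 379 members of the later and 378 of the earlier run, 11 were lower in p53(+/D) tumours against thymus (11.2%). That fit called 2 higher in D/AAA thymus (0.0144%), 0 in p53(+/D) against other RERT2 D/AAA tumours (1.06%), 5 in sorted DP cells (0.481%), 69 in early tumour DP cells (4.46%), 37 in LCK D/AAA MYCChr6 (18.5%) and 15 in RERT2 MYCChr6 tumours against RERT2 D/AAA tumours (7.37%). With no filter, 2 of 378 were higher in early tumour DP cells (0.0439%) and 12 of 379 in RERT2 MYCChr6 against RERT2 D/AAA tumours (4.66%), and with members of at least 10 CPM 15 were higher in LCK D/AAA MYCChr6 against RERT2 D/AAA tumours (18.6%). Without sorted DP D/AAA replicates 1 and 5, 67 of 336 were higher (9.4%) and 2 lower (5.05%) in early tumour DP cells, and without replicate 9 none was.

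Leaving out 1 library at a time gave 0 to 65 higher and 0 to 4 lower members in early tumour DP cells (65 and 4 of 344 without tumour replicate 1, 5.43% and 6.9% of all genes), and 3 to 12 higher and 18 to 27 lower in RERT2 MYCChr6 tumours against RERT2 D/AAA tumours (2.85 to 4.49% and 1.72 to 2.46% of all genes). It gave 122 to 131 higher and 12 to 17 lower in RERT2 D/AAA tumours against thymus, where all libraries gave 138 and 18 (22.4% and 19.1% of all genes). The share of all genes called in those smaller fits was not taken. With a threshold at the reference mean plus 3 SD, libraries past it were 2 (sorted DP D/AAA), 2 (D/AAA thymus), 1 (LCK +/D MYCChr6 tumours) and 4 (LCK D/AAA MYCChr6 tumours). For the last group they were 3 with a prior count of 0.5, 0 with the mean over members and 3 with members of at least 10 CPM. The lowest stretch of the chromosome was at 0.061 in RERT2 D/AAA tumours with bins of 20 Mb and at -0.37 in LCK D/AAA MYCChr6 tumours with members of at least 10 CPM. No paired analysis was possible because the labels give no replicate numbers.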

Other observations

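Mir17hg, the host gene of the miR-17-92 cluster on chromosome 14, is not protein-coding and so is no member. It was 0, 0.458 and 2.06 CPM (lowest, median, highest) in RERT2 +/D thymus, 0, 2.37 and 4.85 in RERT2 D/AAA tumours and 0.647, 3.60 and 8.06 in LCK D/AAA MYCChr6 tumours. The 3 RERT2 MYCChr6 tumours lay between 3.99 and 4.4 CPM, above all 6 thymus libraries, and the 4 LCK +/D MYCChr6 tumours between 1.07 and 2.17. At these levels most libraries hold few counts of the gene, and no test was run.

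Slc7a8, a transporter of neutral amino acids, varied more between MYCChr6 tumours of 1 kind than between the groups. It was 0, 7.31 and 422.6 CPM in the 14 LCK D/AAA tumours, 0.362, 62.9, 364 and 417 CPM in the 4 LCK +/D tumours and 3.62, 190 and 201 CPM in the 3 RERT2 tumours, against 0.199, 2.06 and 7.55 in RERT2 +/D thymus and 0, 0.765 and 2.77 in p53(+/D) tumours.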
